A study of Mus musculus with 6 samples.

Results

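The cytosolic ribosomal protein genes of mouse liver were described after treatment with esculetin, a coumarin derivative. A gene was included when it was annotated as protein-coding and its symbol began with Rpl, Rps or Rplp, followed by a number and at most an a, x or l, or was Rpsa. By this rule 81 of the 55357 genes in the count table were members, 49 of the large and 32 of the small ribosomal subunit. Liver RNA came from male C57BL6/J mice of 8 to 9 weeks that were gavaged for 7 days, with a control diet (10% of kcal from fat) during 4 days and a high-fat diet (HFD, 60% of kcal from fat) during the last 3 days. The vehicle group received 2.5% Tween-80, and the other group received esculetin, whose daily dose is 180 mg/kg in the sample names and 90 mg/kg in the treatment field of the same samples. Both groups were fed HFD, so the comparison shows esculetin on top of this diet and not the effect of the diet. Each group had 3 libraries, each of them from pooled livers of 2 mice, so the p-values measure the spread between such pools.

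The cytosolic ribosome joins ribosomal RNAs to one copy of most ribosomal proteins, and the stalk proteins of the large subunit are the main exception. Hepatocytes depend on it for the steady synthesis of plasma proteins. Many mRNAs of ribosomal proteins start with a C followed by a run of pyrimidines, the 5′ terminal oligopyrimidine (TOP) tract, through which the kinase complex mTORC1 and the RNA-binding protein LARP1 control their translation and stability. Several ribosomal proteins also act outside the ribosome, and many have numerous pseudogenes.

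The start sites of 60 members were found in the RefSeq table of promoters for GRCm38.p6. A tract, here a C within 5 bases of an annotated start followed by 4 or more C or T on the gene's strand, was found in 28 of the 60 (46.7%) and in 21.2% of the 27025 genes of that table. It was found in 16 of 37 large subunit and 12 of 23 small subunit genes. When 6 or more pyrimidines were required after the C, 22 members (36.7%) and 7.64% of all genes had one. The share depended on the annotated start, because with the canonical starts of GENCODE for GRCm39, an alternative chosen after seeing the data, a tract was found in 22 of 81 members (27.2%) and in 19.1% of protein-coding genes. Below are 30 bases around the RefSeq start, 15 before it and 15 from it onward, of 4 members with a tract (in capitals) and of 4 without, shown because both kinds occurred among members whose level rose and among members whose level did not pass the test.
Rplp2: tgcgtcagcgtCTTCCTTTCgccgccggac
Rpl38: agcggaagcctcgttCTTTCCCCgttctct
Rps27: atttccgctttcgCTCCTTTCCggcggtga
Rps6: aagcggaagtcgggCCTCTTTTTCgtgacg
Rps12: taccgtcatgcggccaccgccggccttttc
Rpl11: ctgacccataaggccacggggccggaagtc
Rplp0: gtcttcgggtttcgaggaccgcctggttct
Rps4x: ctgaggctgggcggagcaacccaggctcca
In GRCm38.p6 these windows are chr7:141447636-141447665 (plus strand) for Rplp2, chr11:114668565-114668594 (plus strand) for Rpl38, chr3:90213634-90213663 (minus strand) for Rps27 and chr4:86857353-86857382 (minus strand) for Rps6. Those without a tract are chr10:23787195-23787224 (minus strand) for Rps12, chr4:136053379-136053408 (minus strand) for Rpl11, chr5:115559452-115559481 (plus strand) for Rplp0 and chrX:102189377-102189406 (minus strand) for Rps4x. The window of Rps12 ends in a C followed by pyrimidines, which lies more than 5 bases from the start and so was not counted. The absence of a tract says only that no such run begins within 5 bases of that annotated start.

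The libraries held 27957713 to 34920922 counts, and levels are given as CPM, the counts scaled to a library size common to all libraries by edgeR's TMM factors, which lay between 0.979 and 1.02. The hepatocyte markers summed to between 88166 and 91330 CPM in vehicle and between 84167 and 93397 CPM in esculetin libraries, and 0 of these 8 markers passed the test. Of 14433 genes with enough counts, 78 were members, 46 of the large and 32 of the small subunit. Bulk RNA cannot tell a change in the number of cells of a type from a change in RNA per cell.

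The summed ribosomal protein mRNA was higher in every esculetin library than in every vehicle library. It was 12353, 12239 and 13349 CPM in the vehicle libraries and 15473, 13806 and 13580 CPM in the esculetin libraries. The ratio of the group means was 1.13. The lowest esculetin and the highest vehicle library lay close together, while esculetin library 1 lay well above the others. Without esculetin library 1 the ratio was 1.08, and without vehicle library 3 it was 1.16, alternatives added after seeing the data. Members took 1.27% ± 0.032 of all counts in vehicle and 1.42% ± 0.084 in esculetin livers (SD, n = 3 libraries each).

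**Figure D1:**
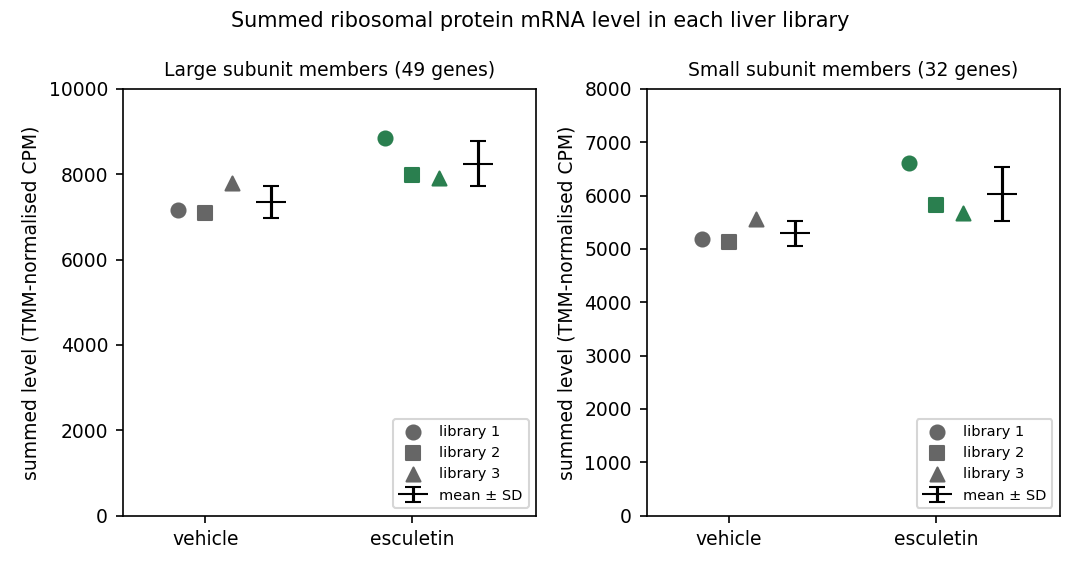
Summed level of the members of the large (left) and small (right) ribosomal subunit in each library, in TMM-normalised CPM, with the mean ± SD (n = 3) beside each group. Esculetin library 1 is highest in both panels, at 8856 and 6617 CPM.

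The differences were of like size in both subunits. The large subunit members summed to 7169, 7102 and 7795 CPM in vehicle and to 8856, 7990 and 7909 CPM in esculetin libraries, a ratio of means of 1.12. The small subunit members summed to 5183, 5136 and 5554 CPM in vehicle and to 6617, 5817 and 5670 CPM in esculetin libraries, a ratio of 1.14. The large to small ratio within a library was 1.38 to 1.40 in vehicle and 1.34 to 1.39 in esculetin, with overlapping groups. The median log2 fold change was 0.19 for the large and 0.18 for the small subunit, against -0.008 for all genes tested.

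Across the single genes, small increases prevailed. The fitted log2 fold change was above 0 for 73 of 78 members, where 48.5% of all genes tested were above 0, and 53 members were between 1.1 and 1.3 times the vehicle level. By edgeR's quasi-likelihood test, 34 of 78 members (43.6%) were higher with esculetin at an unadjusted p under 0.05, against 6.53% of all genes tested, and 0 were lower, against 5.32%. These were 23 of 46 large subunit genes (50.0%) and 11 of 32 small subunit genes (34.4%), and the difference between these shares was not tested. The esculetin libraries were all above the vehicle libraries in 39 members (24 large, 15 small), against 9.2% of all genes tested, and all below in 0, against 8.24%. Members share libraries and move together, so they are not separate replicates of the treatment.

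No single member passed the test after adjustment over all genes. The smallest Benjamini-Hochberg adjusted p was 0.132 with edgeR, and 6 of all genes tested (0.0416%) were under 0.05. DESeq2 gave 5 members under 0.05 (Rps27a, Rpl34, Rps20, Rplp2 and Rpl36), where it gave 193 of all genes (1.34%). EdgeR without a filter on low counts gave 8, the same 5 with Rpl36a, Rps29 and Rps12, and 477 of 24638 genes (1.94%). Rpl36a was named after its values were seen. In the following, a member rose when its unadjusted p was under 0.05. The number that rose was 14 without esculetin library 1, against 4.93% of all genes, and 19 without vehicle library 2, against 4.84%, and each of these was among the 34. After a correction of all coding genes for coding length and GC content, added after seeing the data, it was 16, against 6.06% of all genes, again among the 34. With exon length in place of coding length it was 28, against 7.17% of all genes, and 25 of these were among the 34.

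**Figure D2:**
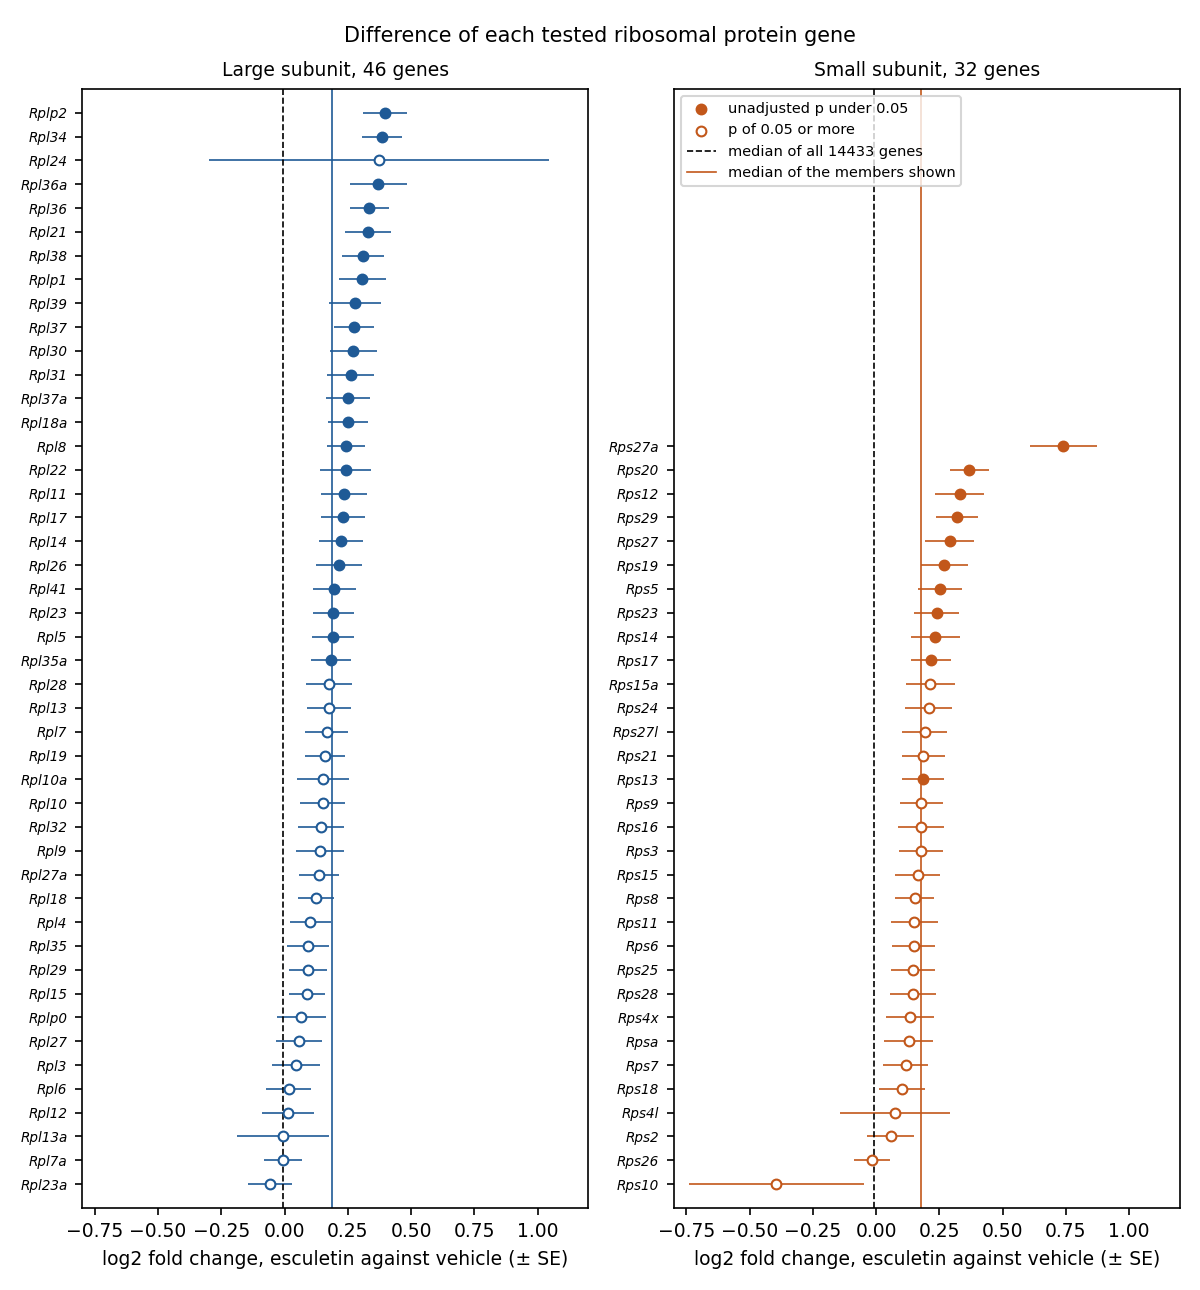
Log2 fold change of each tested member (± SE, esculetin against vehicle), 46 large subunit genes on the left and 32 small subunit genes on the right, with filled points for an unadjusted p under 0.05. Most points lie to the right of the dashed median of all genes, and Rps27a lies apart at 0.74.

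Rps27a showed the largest difference and was the only member to pass an unadjusted p under 0.05 together with a fold change over 1.5, which 3.13% of all genes tested passed. Its product is a fusion of ubiquitin with a small subunit protein, so that its mRNA supplies both. The level was 130, 174 and 168 CPM in the vehicle libraries and 306, 230 and 254 CPM in the esculetin libraries, without overlap. The log2 fold change was 0.74 (SE 0.13, unadjusted p = 0.000266 by the same test, adjusted p = 0.132). It was 0.62 without esculetin library 1 and 0.67 after the coding length correction. Rps27a lies on the minus strand of chromosome 11 (29494748 to 29498109, GRCm39), and 40.8% of its exon bases overlap exons of Clhc1 and Mtif2 on the other strand. Mtif2, a mitochondrial initiation factor, had a log2 fold change of -0.067 (SE 0.085), and Clhc1 was at 0 counts in 5 libraries and at 6 in esculetin library 3.

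Among large subunit genes, Rpl34, Rplp2, Rpl36, Rpl38 and Rpl21 had the smallest p-values, with folds of 1.24 to 1.32. Rpl34 was at 63.8, 65.8 and 68.4 CPM in vehicle and at 93.0, 82.7 and 82.8 CPM in esculetin libraries, a log2 fold change of 0.38 (SE 0.078, adjusted p = 0.136). Rpl36 was at 68.9, 70.4 and 72.0 CPM in vehicle and at 93.6, 90.5 and 82.5 CPM in esculetin libraries, a log2 fold change of 0.34 (SE 0.076, adjusted p = 0.159). For Rpl34 the gap between the groups was wider than the spread within either group, and for Rpl36 it was slightly narrower than the spread among the esculetin libraries. Rpl38, whose loss in mice alters the translation of Hox mRNAs, was at 50.8, 55.9 and 52.6 CPM in vehicle and at 71.7, 60.7 and 65.1 CPM in esculetin libraries, a log2 fold change of 0.31 (SE 0.084, adjusted p = 0.225). For Rpl21 the log2 fold change was 0.33 (SE 0.092, adjusted p = 0.230). These 2 genes also had groups that did not overlap.

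The stalk proteins, which recruit translation factors to the large subunit, were split. Rplp2 was at 57.1, 57.0 and 49.1 CPM in vehicle and at 76.3, 69.9 and 68.8 CPM in esculetin libraries (log2 fold change 0.40, SE 0.086, adjusted p = 0.152). Rplp1 was at 139, 167 and 170 CPM in vehicle and at 202, 202 and 186 CPM in esculetin libraries (log2 fold change 0.31, SE 0.093, adjusted p = 0.255). Both rose, and in both the groups were apart. Rplp0, the base of the stalk and a common reference gene in RT-qPCR, was at 275, 272 and 331 CPM in vehicle and at 320, 315 and 284 CPM in esculetin libraries, with overlapping groups and a log2 fold change of 0.066 (SE 0.096, unadjusted p = 0.506). Coding lengths were 345 bases for Rplp2, 342 for Rplp1 and 951 for Rplp0. The difference between the fold changes of the stalk genes was not tested.

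Rpl5 and Rpl11, which bind the 5S rRNA and, when free, the p53 regulator Mdm2, both rose by a small amount. Rpl5 was at 250, 253 and 278 CPM in vehicle and at 320, 285 and 287 CPM in esculetin libraries (log2 fold change 0.19, SE 0.083, unadjusted p = 0.0441, adjusted p = 0.401). For Rpl11 the values were 197, 183 and 227 CPM in vehicle and 248, 232 and 234 CPM with esculetin (log2 fold change 0.23, SE 0.091, unadjusted p = 0.0280, adjusted p = 0.357). Neither group overlapped the other, but the highest vehicle library came close to the lowest esculetin library in both genes. Neither gene passed the test without esculetin library 1, without vehicle library 1 or 2, or after the coding length and GC correction. Rpl5 also did not pass with scaling by total counts or with a replicate block.

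Among small subunit genes, Rps20, Rps29, Rps12 and Rps27 followed Rps27a. Rps20 was at 86.0, 90.1 and 88.3 CPM in vehicle and at 123, 111 and 107 CPM in esculetin libraries, a log2 fold change of 0.37 (SE 0.077, adjusted p = 0.136). Rps29 was at 77.1, 85.0 and 91.5 CPM in vehicle and at 110, 102 and 105 CPM in esculetin libraries, a log2 fold change of 0.32 (SE 0.083, adjusted p = 0.204). The vehicle values of Rps20 lay within a few CPM of each other. Rps12 had a log2 fold change of 0.33 (SE 0.095, adjusted p = 0.241). Rps27, at 108, 106 and 106 CPM in vehicle and at 149, 116 and 127 CPM in esculetin libraries, had a log2 fold change of 0.29 (SE 0.096, adjusted p = 0.284). In Rps12 and Rps27 esculetin library 1 was above the other esculetin libraries, and Rps27 did not pass the test without it or after the coding length and GC correction.

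Rps6, the substrate of the S6 kinases downstream of mTORC1, was at 289, 279 and 318 CPM in vehicle and at 351, 325 and 305 CPM in esculetin libraries. The groups overlapped, and the log2 fold change of 0.15 (SE 0.086, unadjusted p = 0.115) did not pass the test. Rpsa, which also serves as a precursor of a laminin receptor, overlapped between the groups as well, with a log2 fold change of 0.13 (SE 0.098, unadjusted p = 0.220). Rps14, with a log2 fold change of 0.23 (SE 0.097, unadjusted p = 0.0367, adjusted p = 0.385), did not overlap.

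Levels differed far more between members than between groups. Among the 74 tested members above 20 CPM in vehicle, the mean vehicle level ran from 39.1 CPM (Rps28) to 504 CPM (Rps2), with a median of 149 CPM (these 2 were chosen with their values in view). Per kilobase of coding sequence, the highest mean levels over 6 libraries in the large subunit were those of Rpl41 (1716 CPM per kb), Rpl10 (792 CPM per kb) and Rpl35a (622 CPM per kb). In the small subunit they were those of Rps24 (691 CPM per kb), Rps27l (659 CPM per kb) and Rps14 (650 CPM per kb). These per-kilobase levels leave out untranslated sequence, so that very short genes such as Rpl41, with 138 coding bases, are placed too high. Of these abundant genes, Rpl41 (log2 fold change 0.20, SE 0.085, unadjusted p = 0.0446) and Rpl35a (0.18, SE 0.079, unadjusted p = 0.0435) rose with Rps14. None of these 3 passed the test without esculetin library 1 or without vehicle library 2. Nor did any of them pass after a correction for GC content with either coding or exon length. Rpl41 and Rpl35a also did not pass with scaling by total counts, with a replicate block or without vehicle library 1. Rpl41 was also lost without esculetin library 2, and Rpl35a without esculetin library 3. Rpl10, a protein that joins the large subunit late in its maturation, had a log2 fold change of 0.15 (SE 0.089, unadjusted p = 0.120), and Rps24 one of 0.21 (SE 0.093, unadjusted p = 0.0502). Rps24 lay at the threshold, with an unadjusted p of 0.0456 with DESeq2, 0.0404 with limma-voom and 0.0547 with scaling by total counts. It passed without vehicle library 3 or esculetin library 3, and did not pass without any other single library or after the coding length and GC correction.

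The paralogs that replace standard proteins in other tissues were nearly silent. Rpl10l, a testis form of Rpl10, had 0 counts in every library, which allows up to 0.0865 to 0.109 CPM at these depths. Rpl39l, another germ cell form, had 4 counts in vehicle library 3 and 0 elsewhere, and the muscle form Rpl3l had at most 7 counts in a library. These 3 genes were the members left untested. Their parent genes Rpl3 (log2 fold change 0.046, SE 0.095) and Rpl10 did not pass the test, while Rpl39 rose (0.28, SE 0.10, unadjusted p = 0.0232, adjusted p = 0.340). Rpl39 did not pass without esculetin library 1, without vehicle library 1 or after the coding length and GC correction.

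Rps4l, an intronless relative of Rps4x, was at 15.8, 14.5 and 10.2 CPM in vehicle and at 15.1, 17.6 and 9.97 CPM in esculetin libraries, with a log2 fold change of 0.075 (SE 0.22). Its parent Rps4x had a log2 fold change of 0.13 (SE 0.095, unadjusted p = 0.187). Rps27l, a p53-inducible relative of Rps27, was the only such paralog at a level near that of its parent. It was at 170, 151 and 144 CPM in vehicle and at 191, 166 and 174 CPM in esculetin libraries, which overlapped (log2 fold change 0.19, SE 0.089, unadjusted p = 0.0576, and 0.0492 with limma-voom).

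Not every abundant member was higher. Rpl7a, Rpl23a and Rps26, named after their values were seen, had log2 fold changes of -0.0061 (SE 0.074), -0.056 (SE 0.087) and -0.017 (SE 0.072), and none of them passed the test. The lowest value, -0.40 (SE 0.35) for Rps10, rested on 18 to 38 counts per library. Rps10, Rpl24 and Rpl13a, also named after their values were seen, were at 7.55 CPM or less in every library, and Rpl24 had only 3 to 20 counts. They are standard ribosomal proteins, and the processed pseudogene Rps10-ps2 carried 795 to 1223 counts per library where Rps10 itself carried 18 to 38. Rpl24 and Rpl13a overlap other annotated genes over 56.0% and 33.0% of their exon bases. How reads shared between such genes were counted was not tested, and the values of these 3 members are uncertain.

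Reads shared with pseudogenes, which were not measured, could concern most members, because 63 of 81 had at least 1 annotated pseudogene among the 322 in the table. Summed over all members, pseudogenes held 3.16 to 3.22% as many counts as the members in the 6 libraries, but the share was uneven. Apart from Rps10, which had fewer counts than its pseudogenes, it was highest for Rpl21, with 5154 pseudogene counts against 9641 of its own, and for Rpl14 (37.6%) and Rps7 (31.9%), singled out by these values. It was over 10% for 11 tested members, among them Rpl38 (17.5%) and Rps12 (12.1%). Exons of 50 members overlapped those of another gene, and in 13 the overlap was over 30% of exon bases.

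The shift was not spread evenly over the libraries. Of the 78 members, 67 had their highest level in esculetin library 1, and 38 and 29 had their lowest in vehicle libraries 1 and 2. Taking each member's log2 level relative to its mean over the 6 libraries, the median was -0.12, -0.13 and -0.0034 in the vehicle libraries and 0.21, 0.038 and 0.032 in the esculetin libraries. Esculetin library 1 and vehicle library 3 therefore stood apart from the rest of their groups, and the members' median log2 fold change was 0.12 without the former and 0.22 without the latter.

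**Figure D3:**
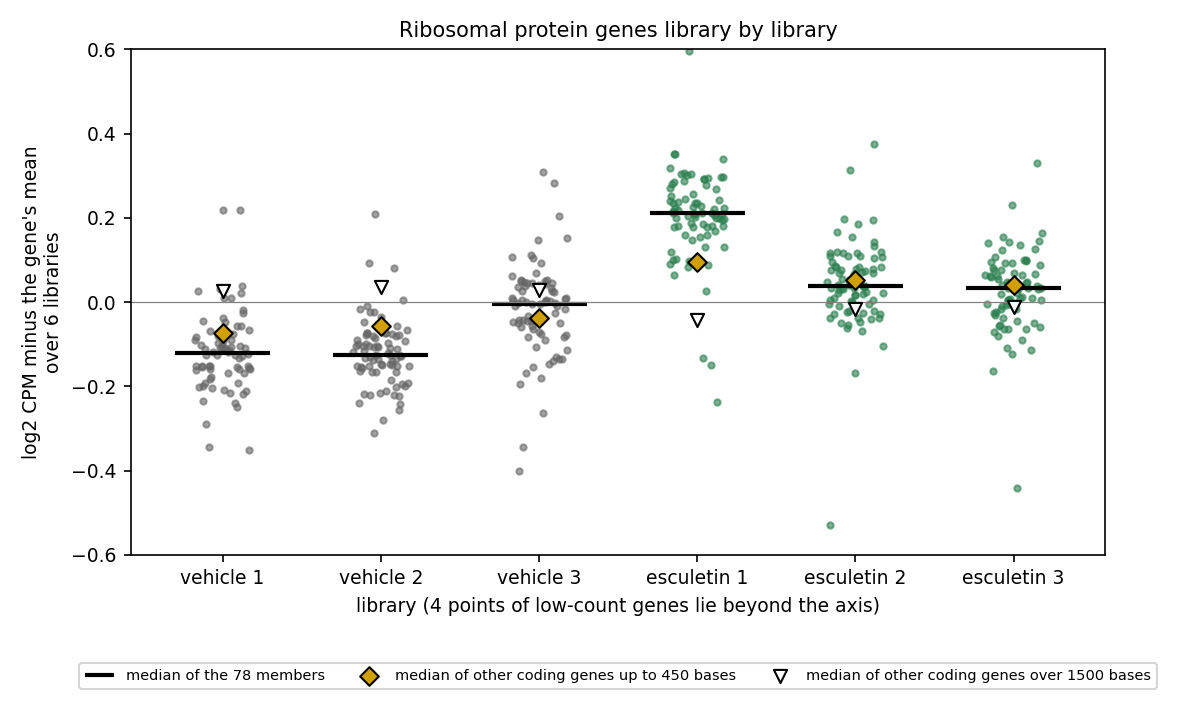
Log2 CPM of each of the 78 members in each library, relative to the member's mean over the 6 libraries (bars are medians, 4 points of low-count genes lie beyond the axis). Diamonds and triangles give the same median for other coding genes of up to 450 and over 1500 coding bases, which move in opposite directions between the groups.

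The share of counts from mitochondrially encoded genes was 7.31 to 7.62% in vehicle and 6.87 to 7.26% in esculetin libraries, with esculetin library 1 inside the range of its group. In esculetin library 1 the summed neutrophil markers were at 4.35 CPM, against 1.12 to 2.33 CPM in the other libraries, with the defining marker Ly6g at 0 in all of them. Of the tested neutrophil markers, 1 of 2 was higher and 0 were lower with esculetin. Erythroid markers were at 178 CPM in that library and at 114 to 155 CPM elsewhere, with 1 of 5 higher and 1 lower. Stellate cell markers were lowest in that library, at 306 CPM against 341 to 410 CPM elsewhere, with 0 of 7 higher or lower. Kupffer cell markers summed to 308 to 411 CPM in vehicle and 316 to 324 CPM in esculetin, with 0 of 8 higher and 1 lower. Lymphocyte markers summed to 15.7 to 16.5 CPM and 12.4 to 16.3 CPM, with 1 of 6 higher and 1 lower, and cholangiocyte markers to 39.5 to 80.4 CPM and 30.3 to 45.7 CPM, with 0 of 5 higher and 1 lower. The lower lymphocyte marker, Ptprc, made up 10.4 to 14.1 CPM of its sum. The lower cholangiocyte marker, Spp1, made up 23.7 to 75.5 CPM of its sum (log2 fold change -0.75), while 4 of the 5 were above 0. Ptprc and Spp1 were named after their values were seen. No endothelial or proliferation marker passed the test, and the part of any of these values in the members' difference was not tested.

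The members' difference went with their coding length. Across the 78 members, which share these libraries, Spearman's rho between log2 fold change and coding length was -0.48 (large subunit -0.58, small subunit -0.37), while it was -0.22 with coding GC content and -0.29 with the vehicle level. Of 36 members with up to 450 coding bases, 22 (61.1%) rose, with a median log2 fold change of 0.22, and of 39 members with 450 to 900 bases, 12 (30.8%) rose, with a median of 0.15. The 3 longer members had a median of 0.066 and 0 rose.

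Other coding genes followed the same order at lower values. Their median log2 fold change was 0.12 up to 450 bases (747 genes, 20.5% rose), 0.056 from 450 to 900 bases (2510 genes, 10.8% rose), 0.011 from 900 to 1500 bases and -0.052 above 1500 bases. Relative to its mean, the median short coding gene was at -0.072, -0.057 and -0.037 in the vehicle libraries and at 0.095, 0.054 and 0.040 in the esculetin libraries, so short genes as a class were higher in the same libraries as the members. In esculetin libraries 2 and 3 it lay above the median of the members of all lengths, which was 0.038 and 0.032. After the correction for coding length and GC content, the members' median log2 fold change was 0.11, with 0.11 for the large and 0.10 for the small subunit. What made short genes differ between these libraries was not tested.

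**Figure D4:**
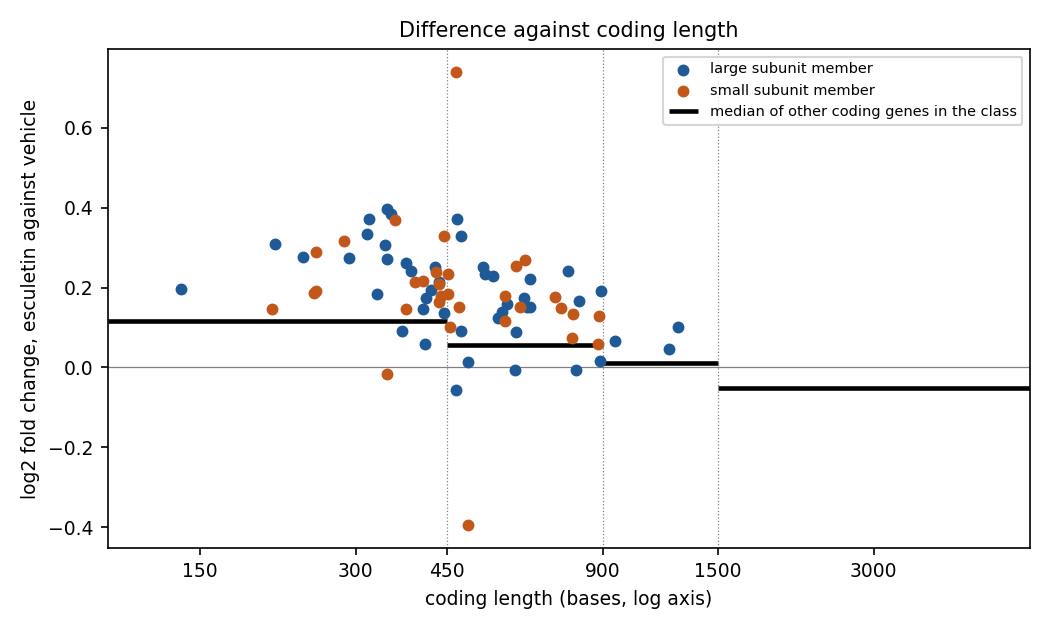
Log2 fold change (esculetin against vehicle) of each tested member against coding length on a log axis, with black bars for the median of other coding genes in each of 4 length classes. Members and other genes both fall with length, from medians of 0.22 and 0.12 up to 450 bases.

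The members were also split by the tract at the start. With a tract near a RefSeq start, 9 of 28 members (32.1%) rose and the median log2 fold change was 0.18, and without one, 12 of 29 tested members (41.4%) rose and the median was also 0.18. With the GENCODE starts, 6 of 20 tested members with a tract and 28 of 58 without rose, and both medians were again 0.18. Of all genes tested, 6.53% rose, and the difference between members with and without a tract was not tested. Rplp2, Rpl38 and Rps27, whose tracts are printed above, rose. Rps12 and Rpl11, which had none within 5 bases of the RefSeq start, rose as well. Rps6 with a tract and Rplp0 and Rps4x without one did not pass the test.

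Ribosomal genes that the symbol rule left out gave values like those of the members. Of these 10 genes, 4 rose and 0 fell, with a median log2 fold change of 0.22. Of all genes tested, 6.53% rose and 5.32% fell, and the counts of this and the following lists are to be read against these shares. Fau, a fusion of a ubiquitin-like protein with a small subunit protein, was at 89.1, 97.3 and 90.8 CPM in vehicle and at 129, 114 and 116 CPM in esculetin libraries, without overlap (log2 fold change 0.37, SE 0.079, unadjusted p = 0.000933, adjusted p = 0.145). Rsl24d1, a factor of large subunit assembly, had a log2 fold change of 0.28 (SE 0.11, unadjusted p = 0.0283).

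Of 18 other mRNAs known for a TOP tract, which include some of these genes, 5 rose and 0 fell, with a median of 0.16. Tpt1, the translationally controlled tumour protein, was at 696, 699 and 701 CPM in vehicle and at 904, 811 and 785 CPM in esculetin libraries, without overlap (log2 fold change 0.25, SE 0.080, unadjusted p = 0.00999, adjusted p = 0.264). Of 9 host genes of small nucleolar RNAs, listed as TOP transcripts that do not yield ribosomal proteins, 2 rose and 0 fell, with a median of 0.27. They were Gas5 (log2 fold change 0.29, SE 0.074, unadjusted p = 0.00290) and Snhg6 (0.43, SE 0.18, unadjusted p = 0.0413). The groups overlapped for Snhg6 and did not for Gas5. The starts of the listed host genes were not looked at singly for a tract.

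Translation factors had lower medians. Of 9 elongation factors and their regulators, Eef1b2, an exchange factor subunit for the elongation factor that delivers tRNA, rose (log2 fold change 0.22, SE 0.083, unadjusted p = 0.0232), and Eef2k, the kinase that inhibits elongation, fell (-0.33, SE 0.13, unadjusted p = 0.0322). The median was 0.082. Of 38 initiation factors, 2 rose (5.26%) and 1 fell, near the shares of all genes, with a median of 0.040. Eif1, a start codon selection factor, rose (0.31, SE 0.081, unadjusted p = 0.00347) and the scaffold Eif4g3 fell (-0.27, SE 0.096, unadjusted p = 0.0177).

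Genes that act upstream of ribosome production lay closer to the median of all genes. Of 57 genes of ribosome biogenesis, such as nucleolar processing factors and RNA polymerase I subunits, 2 rose (3.51%) and 0 fell, with a median log2 fold change of 0.039. They were Imp3 (0.35, SE 0.090, unadjusted p = 0.00341) and Polr1d (0.28, SE 0.095, unadjusted p = 0.0166). Of 28 genes of mTORC1 signalling and TOP mRNA control, 1 rose and 0 fell, with a median of -0.0082. It was Eif4ebp1, a repressor of cap-dependent initiation (0.39, SE 0.13, unadjusted p = 0.0126), while Cnbp, a TOP mRNA binding protein, had 0.16 (SE 0.077, unadjusted p = 0.0625).

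The mitochondrial ribosome and the proteasome, other large protein complexes, lay between the members and all genes. Of 77 mitochondrial ribosomal protein genes, 14 rose (18.2%) and 0 fell, with a median log2 fold change of 0.10. Of 39 proteasome genes, 4 rose (10.3%) and 1 fell, with a median of 0.043. The differences between these lists and the members were not tested.

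**Figure D5:**
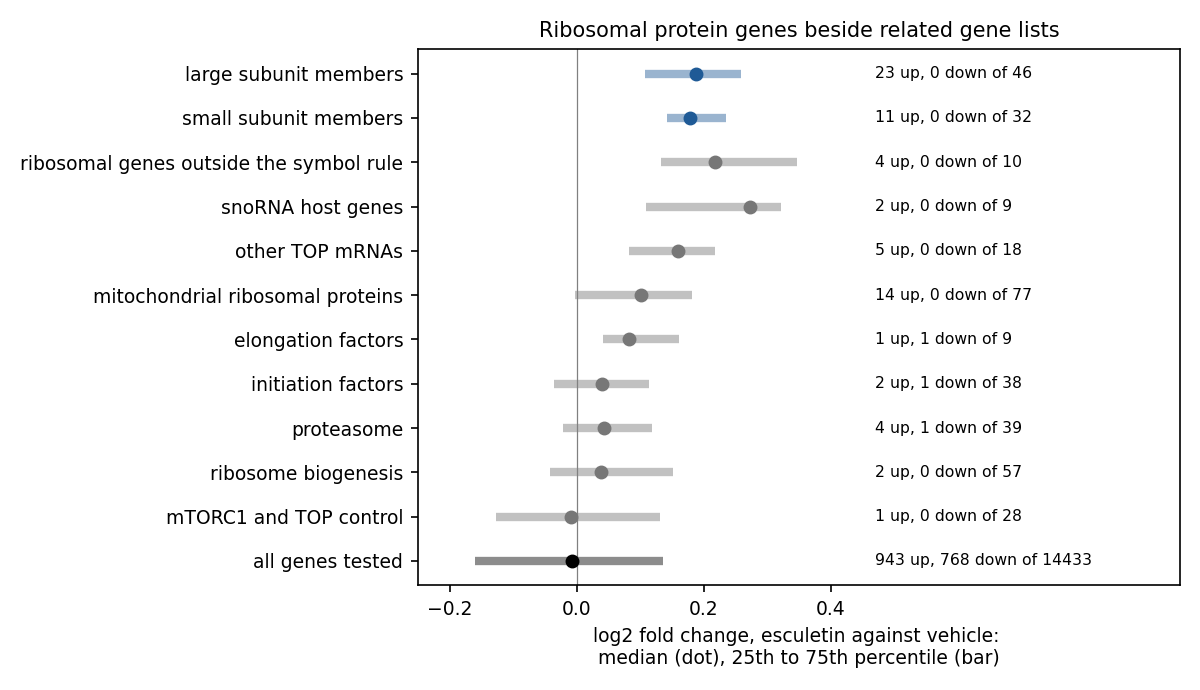
Median log2 fold change (dot) and 25th to 75th percentile (bar) of the members by subunit, of related gene lists and of all genes tested, with the number higher and lower at an unadjusted p under 0.05 at the right. The large and small subunit members have medians of 0.19 and 0.18, and all genes tested lie at -0.008.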

How the data were processed

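The deposited values are raw gene-level counts, which the authors obtained with featureCounts from paired-end reads mapped by HISAT (version 2.2.1) to GRCm39. Strandedness and the treatment of multi-mapping reads are not given in the sources used here, so values of paralogs, pseudogenes and overlapping genes are uncertain. A GENCODE annotation of GRCm39 held 54749 of 55357 gene identifiers. Genes passing filterByExpr were normalized by TMM and compared with edgeR 4.0.16's quasi-likelihood test in R 4.3.3, fitted on 14433 genes with Benjamini-Hochberg adjustment over all of them. The biological coefficient of variation was 14.6%. The chi-square per gene between replicates was at least 26.6, so none were duplicates. The scripts were tested on simulated data. Members and lists were chosen with earlier results of these data known.

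Genes were named by rule: per subunit, the 5 smallest p-values and 3 highest per-kilobase levels, members past p under 0.05 with fold over 1.5, paralogs with parents, stalk genes, Rps6, Rpsa, Rpl5, Rpl11 and 2 genes per related list. Alternatives were DESeq2 1.42.0, limma 3.58.1 (voom, trend), other scalings and filters, each library left out, a replicate block and length and GC corrections (splines, 5 degrees of freedom).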

Additional observations from a re-analysis of the deposited data

How the results depend on the processing

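The members' median log2 fold change stayed above 0 under every alternative, at 0.12 to 0.22 when single libraries were left out. The number with an adjusted p under 0.05 was 0 with limma and in every filtered edgeR fit, 5 with DESeq2 and 8 with edgeR without a filter. When single libraries were left out, the number with an unadjusted p under 0.05 ranged from 14 (without esculetin library 1) to 38 (without vehicle library 3 or esculetin library 3). It was 24 without vehicle library 1, 40 without a filter, 28 with scaling by total counts, 16 after the correction for coding length and GC content and 11 when a replicate block was added to that correction. With exon length in place of coding length it was 28, and 26 with the block. Of all genes, 4.84 to 7.17% were higher over all alternatives. The replicate block alone gave 29 members and a median of 0.18. Libraries of the same number did not deviate together (correlations of -0.069, -0.011 and 0.0027), so sharing a number did not make libraries pairs.

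With ribosomal genes outside the symbol rule, members took 1.36% and 1.51% of counts in vehicle and esculetin. Of the counts of nuclear coding genes they took 1.39% and 1.55%, and with pseudogenes added the means were 1.31% and 1.46%. The log2 fold change of Rps4l ranged from -0.11 (without esculetin library 2) to 0.28 (without esculetin library 3) and was -0.086 without vehicle library 3, and that of Rpl3 was -0.036 without esculetin library 1. The cause of these changes was not tested. The precision is limited by the number of pools, 3 in each group, and for the members of low count also by counting error.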
